A study of Malus domestica with 8 samples.

Results

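Leaf messenger RNA was compared between mdagg-3 and mdagg-2, separate CRISPR/Cas9 knock-out lines of MdAGG in the apple cultivar 'Gala' (Malus domestica). The comparison used all features of the 4 libraries of these lines, 2 a side, out of 8 libraries in the series. The other 4 libraries came from non-transformed 'Gala' (wt) and from a further knock-out line, mdagg-4, 2 each. They entered the estimate of the spread and are given beside the lines as levels, not as the reference. In every group, rooted in vitro plants spent 8 weeks in a greenhouse kept at 22 °C (relative humidity 80%) and were then sprayed with 0.2 g/l of acibenzolar-S-methyl (ASM). Leaves were taken 3 days later. Since all plants received ASM, neither the response to ASM nor its size in a line was measured. The 2 libraries of a group are bulks of leaves from 2 independent experiments, per the series' design text. The guides, the edited alleles and the promoters of the transgene are not described in the labels.

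MdAGG encodes an agglutinin, a lectin that binds carbohydrates, studied in apple leaves as a defence protein. ASM is a synthetic compound that stands in for salicylic acid and switches on defence genes in apple. Each line that passes through transformation and regeneration can carry its own edits, its own insertion site and its own changes from tissue culture, so lines with one target can differ from each other at other genes.

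The libraries held 31807423 and 28591909 estimated reads for mdagg-2 and 32350520 and 36381307 for mdagg-3, within a range of 28591909 to 36995911 over all 8. The feature with most reads took 1.02% to 2.17% of a library. Of 52311 annotated features, 32373 had enough reads to be tested. None of the identifiers (0 of 52311) could be matched to a gene name, and the files do not say which belong to MdAGG, so the target gene and the markers of leaf tissue were not checked. Identifiers carry a 2-digit field after the letters MD, which is the chromosome number for fields 01 to 17, while field 00 holds unplaced features. Order along a field is identifier order, since the files give no coordinates. In bulk leaves, fewer cells of a type and less RNA per cell cannot be told apart.

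Few features passed a test between the lines, which with 2 libraries a side does not show that the lines were alike. No feature (0 of 32373, 0.0%) was higher in mdagg-3 at an adjusted p below 0.05 in edgeR's quasi-likelihood test, and 1 feature was lower, which is 0.00309% of those tested. At an unadjusted p below 0.05 there were 546 features, 1.69% of those tested, of which 270 were higher (0.834%) and 276 lower (0.853%) in mdagg-3. The 1.69% is below the share that a limit of 0.05 lets pass where no feature differs. DESeq2, run without edgeR's low-count filter, called 6 features higher (0.0145%) and 9 lower (0.0218%) in a fit of 8 libraries. These are shares of the 41280 features with an adjusted p in that fit. In a fit of the 4 libraries of these lines DESeq2 called 9 higher (0.0227%) and 4 lower (0.0101%), of 39707 features with an adjusted p. The DESeq2 fits had 10 calls in common.

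By the share of features at least 2-fold apart, the mdagg-2 libraries differed from each other more than any library of mdagg-2 did from one of mdagg-3. The mdagg-2 libraries were at least 2-fold apart at 16.5% of tested features, and the mdagg-3 libraries at 7.69%. Between a library of mdagg-2 and one of mdagg-3, the share ran from 8.87% to 12.8%. By this share, replicate 1 of mdagg-2 was nearer to either mdagg-3 library than to the other library of its own line. The median absolute difference was 0.38 on the log2 CPM scale (CPM, reads as a share of the library total, after scaling of the libraries) within mdagg-2 and 0.32 within mdagg-3. It was 0.28 to 0.39 between single libraries of different lines. Between the means of the lines it was 0.19, where averaging of 2 libraries also reduces the spread.

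**Figure D1:**
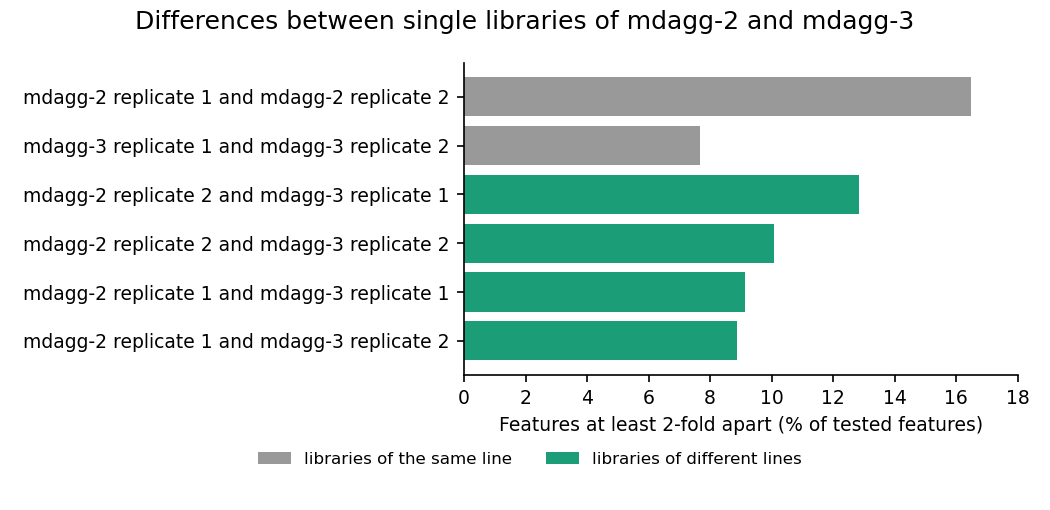
Share of tested features (x axis, percent) that were at least 2-fold apart in each of the 6 pairs among the mdagg-2 and mdagg-3 libraries (y axis). Grey bars are pairs from the same line and green bars pairs from different lines, and the longest bar, at 16.5%, is the pair of mdagg-2 libraries.

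Same-numbered libraries taken apart shared few of their differences. Between the libraries numbered 1, 1857 features were at least 2-fold higher in mdagg-3 and 1096 lower. Between the libraries numbered 2, 1513 were higher and 1753 lower. Of these, 116 were higher and 112 lower under both numbers, while 864 lay on opposite sides. These 2 differences share no library, and across features their Pearson correlation was -0.23, given as a description because features are not independent replicates.

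Both mdagg-3 libraries lay above both mdagg-2 libraries at 3556 features (11.0% of those tested) and below them at 3650 (11.3%). With 2 libraries a side, such orders are common even where lines do not differ, so no difference between the lines is read from these counts. With line means at least 2-fold apart as well, 283 features were higher (0.874%) and 289 lower (0.893%). These 2 sets were made up mostly of weakly expressed features. Their mean level was below 1 CPM at 64.0% of the higher and 73.4% of the lower set, against 14.7% of all tested features. Their transcripts were shorter, with medians of 1006 and 1114 bases against 1515 bases overall. The wt mean was nearer to mdagg-3 at 133 of the 283 higher features (47.0%) and at 128 of the 289 lower ones (44.3%), against 52.9% of all features.

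The 1 feature that passed the test, MD17G1123100, has a transcript of 1929 bases on field 17. It had 588 and 565 reads in mdagg-2, and 3 and 3 reads in mdagg-3. The wt libraries held 5 and 3 reads and the mdagg-4 libraries 4 and 5. The feature was thus high in both mdagg-2 libraries and near 0 in all of the other 6. Its level was 19.7 ± 0.813 CPM in mdagg-2 and 0.0908 ± 0.0104 CPM in mdagg-3 (SD, n = 2). The log2 difference, mdagg-3 minus mdagg-2, was -7.71 ± 0.37 (SE), with an edgeR adjusted p of 0.00155. From the summed reads, mdagg-2 held 218 times the level of mdagg-3, with an exact 95% interval of 99.9 to 596 that covers counting error only. The authors' deposited table, which shares these mdagg-2 libraries, gives a log2 fold change of 7.47 against wt for mdagg-2 and -0.30 for mdagg-3. The edgeR log2 difference was -7.82 without replicate 1 of mdagg-3 and -7.59 without replicate 2, each with 1 library left in that line. Over the edgeR alternatives that tested the feature with both libraries of each line, its adjusted p ran from 5.87e-05 to 0.0793. The lowest value came without the low-count filter. The highest, with a replicate block and 4 libraries, did not pass. DESeq2 gave adjusted p-values of 3.37e-25 with 8 libraries and 1.14e-24 with 4.

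The other 3 features named by rule, those with the smallest p in each direction, did not pass edgeR's test. MD13G1190300 (field 13, 1314 bases) had 45 and 47 reads in mdagg-2 but 0 and 0 in mdagg-3. In wt there were 5 and 5 reads, and in mdagg-4 there were 27 and 74. It was therefore at 0 in mdagg-3 and low in wt, while mdagg-2 and mdagg-4 both carried it. Its level in mdagg-3 was at least 17.3-fold lower than in mdagg-2, taking 3 reads per library as the floor. Its edgeR adjusted p was 1, and DESeq2 gave 0.00245 with 8 libraries and 0.00468 with 4.

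MD08G1171700 (field 08, 437 bases) had 0 and 3 reads in mdagg-2 and 181 and 121 in mdagg-3. It had 0 and 0 reads in wt, and 0 and 1 in mdagg-4. Reads above the floor of 3 were therefore seen in mdagg-3 and in no other group. The ratio of mdagg-3 to mdagg-2 was 88.7, with an exact 95% counting interval of 30.0 to 432. The edgeR log2 difference was 6.40 ± 0.90 (SE) with an adjusted p of 1, and DESeq2 gave adjusted p-values of 1.62e-05 with 8 libraries and 3.77e-06 with 4. The edgeR log2 difference was 5.47 without replicate 1 of mdagg-2. Without replicate 2 it was 10.33, a value against 0 reads that is no bound.

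MD14G1194300 (field 14, 747 bases) had 0 and 1 reads in mdagg-2 and 28 and 31 in mdagg-3. The wt libraries held 3 and 2 reads and the mdagg-4 libraries 64 and 80. Here mdagg-2 and wt were both near 0, and mdagg-4 was higher than mdagg-3. The ratio of mdagg-3 to mdagg-2 was 52.0, with an exact 95% counting interval of 8.97 to 2087, and the edgeR log2 difference was 5.43 ± 0.75 (SE) with an adjusted p of 1. DESeq2 did not call it either, with an adjusted p of 0.424 in the fit of 8 libraries. The edgeR log2 difference was 4.58 without replicate 1 of mdagg-2 and, against 0 reads and so no bound, 7.95 without replicate 2.

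**Figure D2:**
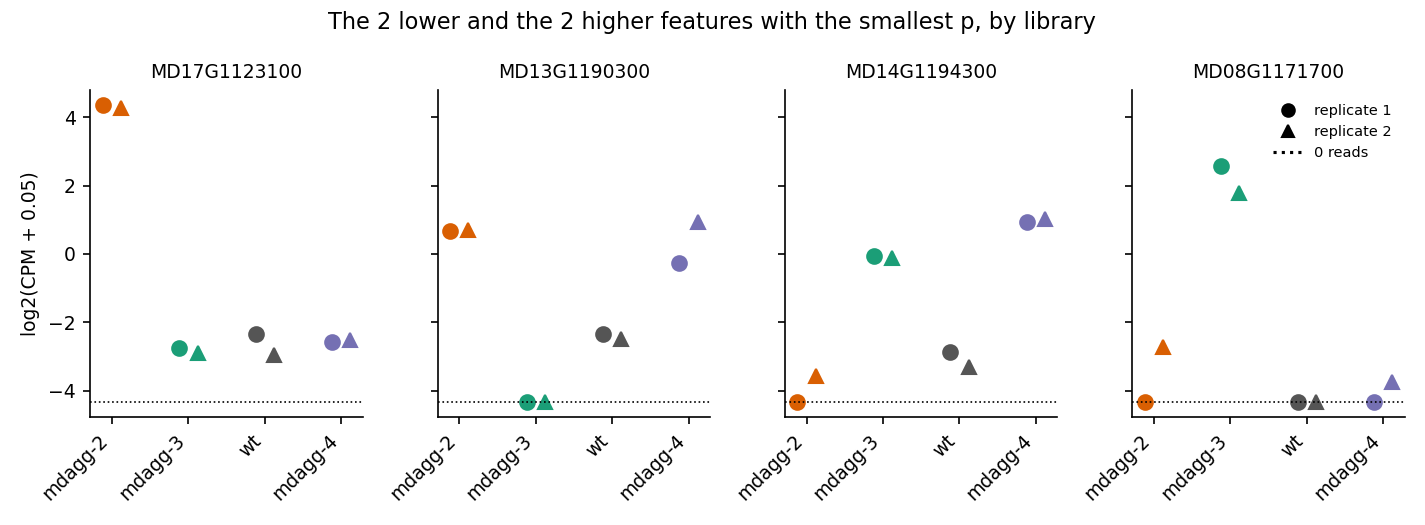
Level of the 4 named features in each library, as log2(CPM + 0.05) on the y axis, by group on the x axis, with circles for replicate 1, triangles for replicate 2 and a dotted line at 0 reads. MD17G1123100 is high in both mdagg-2 libraries alone, MD08G1171700 in both mdagg-3 libraries alone, and the other features are high in mdagg-4 and in 1 of the compared lines.

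Differences were next followed along identifier order, where neighbouring identifiers that shift together would show as a run. No whole field moved, with field medians between -0.02 and 0.03 on the log2 scale. Over windows of 50 consecutive features with a mean log2 CPM above 3, medians stayed between -0.14 and 0.15. Over windows of 10 among all tested features, the lowest median was -0.93, on field 06, and the highest was 4.02, on field 10. The central range of these windows, from the 0.1 to the 99.9 percentile, was -0.48 to 0.48. The runs on fields 06 and 10 came from the windows past an absolute median of 0.75, a limit set after the values were seen. The median also had to have the same sign in every pairing of a mdagg-3 with a mdagg-2 library. A run was then extended along the field for as long as the difference between line means kept its sign. Both runs are therefore described without a test. Just inside the limit of 0.75 was the lowest window of field 06, at -0.93, and the run extended from that field's windows had a median of -0.89. Just outside it, among the other fields, were windows of 10 features on field 08, at -0.67, and on field 11, at -0.68, which were not extended.

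The run on field 06 was lower in mdagg-3. It spans 34 consecutive identifiers, 570th to 603rd of 2405 on the field, of which 15 were tested, with transcripts of 468 to 5139 bases. Their summed level was 224 and 302 CPM in mdagg-2, and 119 and 116 CPM in mdagg-3. In wt it was 271 and 307 CPM, and in mdagg-4 264 and 319 CPM. Both mdagg-3 libraries were thus below all of the other 6.

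By the rule that set the run's ends, all 15 members had a lower mean in mdagg-3 than in mdagg-2. Their log2 differences ran from -2.19 to -0.29, with a median of -0.89, a ratio of 0.538. The median was -0.72 between the libraries numbered 1 and -0.93 between those numbered 2. The crossed comparisons gave -1.03 and -0.71. A shared sign in every pairing was a condition of the search. For 13 of the 15, both mdagg-3 libraries lay below both mdagg-2 libraries, beside 11.3% of all tested features. Since the same contrast picked out the run, nothing is read from that count. In edgeR, 10 of the 15 had an unadjusted p below 0.05 and none (0) an adjusted p below it, beside 0.853% and 0.00309% of all tested features that were lower by the same limits. DESeq2 called 2 with 8 libraries (0.0218% of all features in that fit) and 0 with 4 (0.0101% in that fit). Nothing is read from these counts either.

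Members of the run differed in how evenly they moved. The 8th, with a transcript of 2134 bases, had 68.4 and 62.1 CPM in mdagg-2 and 28.4 and 29.3 CPM in mdagg-3. It had 60.4 and 60.9 CPM in wt and 67.0 and 50.1 CPM in mdagg-4. Both mdagg-3 libraries were close to each other and below every other library. The 9th, the longest at 5139 bases, had 41.1 and 51.4 CPM in mdagg-2 against 16.9 and 23.1 CPM in mdagg-3. The 6th was uneven between replicates, with 7.10 and 71.2 CPM in mdagg-2 and 7.26 and 3.28 CPM in mdagg-3. Replicate 1 of mdagg-2 overlapped mdagg-3 there, and its difference of -2.19 was the largest in size of the run. The last member was nearly level, with 2.41 and 2.00 CPM in mdagg-2 and 2.16 and 1.47 CPM in mdagg-3.

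Relative to wt, which the search for the run did not use, the change lay in mdagg-3. The median member was at -0.98 in mdagg-3, -0.13 in mdagg-2 and -0.03 in mdagg-4 on the log2 scale. Both mdagg-3 libraries lay below both wt libraries at 14 of the 15 members (16.4% of all tested features did so). Both lay below both mdagg-4 libraries at 13 of the 15 (21.1% of all features). For mdagg-2 against wt the count was 5 (14.7%) and for mdagg-4 against wt it was 1 (14.0%). These counts share the mdagg-3 libraries with the contrast that picked the run, so they are not independent of it. In the authors' deposited table, the median log2 fold change of the members against wt was -1.01 for mdagg-3, with 6 members called, and -0.14 for mdagg-2, with 0 called. Over all features with an adjusted p, the authors' deposited table calls 363 lower in mdagg-3 (1.13%) and 9 lower in mdagg-2 (0.0274%).

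The limits of the run were set from these same differences. The 20 tested features around it, 10 on each side, had a median of 0.10 and ran from -0.41 to 0.36. The feature just before the run was at 0.26 and the one just after at 0.15, both positive because the run ended where the sign changed. The first member was at -0.85, outside the range of the surrounding features, while the last, at -0.29, lay within it. Of the 15 members, 9 had an estimated count that was not whole in some library, beside 74.7% of all tested features.

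**Figure D3:**
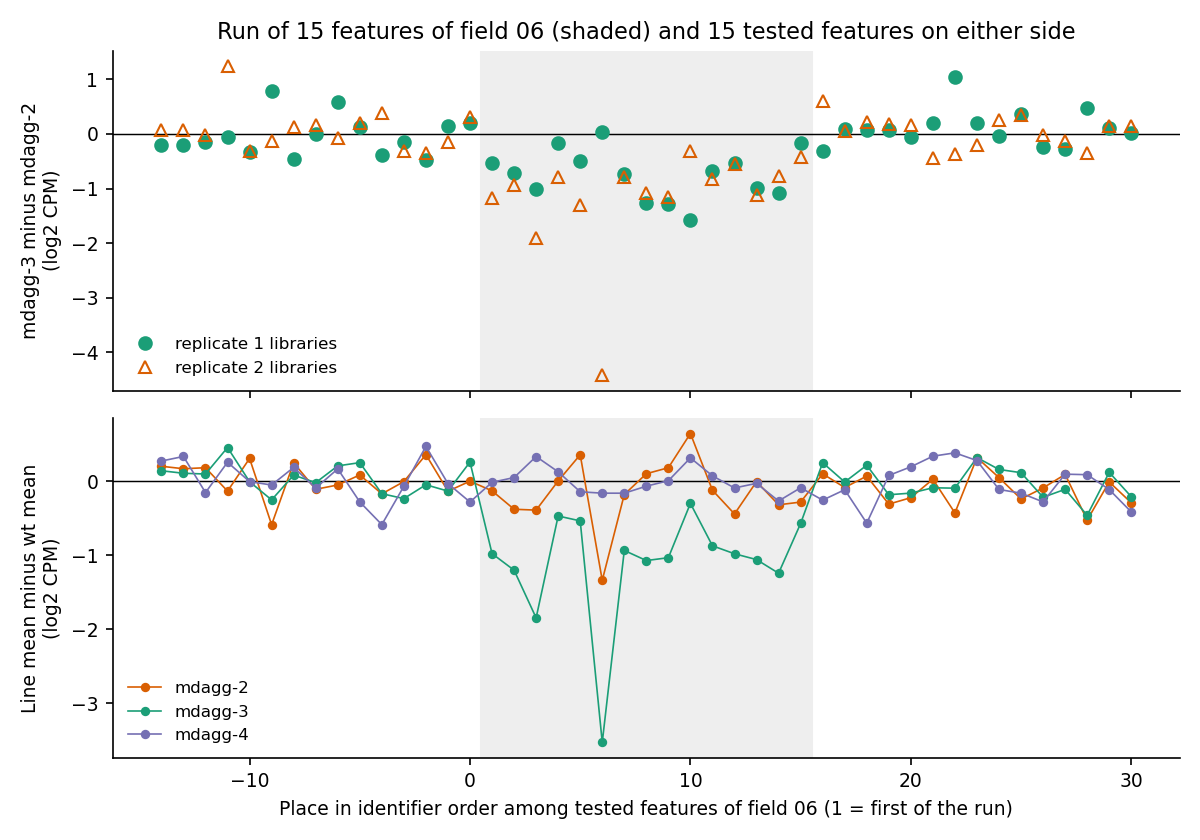
Log2 CPM differences of tested features in identifier order on field 06, with the 15 members of the run shaded and features on either side for comparison. The upper panel plots mdagg-3 minus mdagg-2 for each replicate number and the lower panel each line's mean minus the wt mean. In the lower panel the median member of the run is at -0.98 in mdagg-3, -0.13 in mdagg-2 and -0.03 in mdagg-4. Single members lie between -3.53 and -0.30 in mdagg-3 and between -1.34 and 0.65 in mdagg-2.

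The run on field 10 was higher in mdagg-3, with a large spread between replicates. It spans 20 consecutive identifiers, 265th to 284th of 3421 on the field, of which 11 were tested. Their transcripts were nearly equal in length, with 2 of 495 bases and 9 of 498 bases. All 11 had an estimated count that was not whole in some library, beside 74.7% of all tested features. Whether the members share reads was not tested.

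The summed level of the 11 members was 0.448 and 15.7 CPM in mdagg-2, and 28.4 and 237 CPM in mdagg-3. In wt it was 138 and 77.8 CPM, and in mdagg-4 3.60 and 1.07 CPM. The mdagg-3 libraries thus lay above the mdagg-2 libraries, but replicate 1 of mdagg-3 was only 1.81 times replicate 2 of mdagg-2. Within lines, replicate 2 exceeded replicate 1 by 8.34 times in mdagg-3 and by 35.1 times in mdagg-2. Between lines, mdagg-3 exceeded mdagg-2 by 63.4 times in the libraries numbered 1 and by 15.1 times in those numbered 2. Behind these levels stood 13 and 465 reads in mdagg-2 and 868 and 8511 in mdagg-3. Per transcript length, the summed level was 1.44 and 60.7 TPM in mdagg-2, and 90.2 and 851 TPM in mdagg-3.

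The log2 difference of the members, mdagg-3 minus mdagg-2, had a median of 3.95 and ran from 0.71 to 5.91. Its sign was the same at every member by the rule that set the run's ends. The median was 4.00 between the libraries numbered 1 and 3.88 between those numbered 2. In the crossed comparisons it was 0.74 and 6.55, so its size was not stable across the 4 comparisons. The shared sign was a condition of the search. For 6 of the 11, both mdagg-3 libraries lay above both mdagg-2 libraries, beside 11.0% of all tested features, and nothing is read from that count, since the same contrast picked the run. An unadjusted edgeR p below 0.05 was found for 8 members, beside 0.834% of all tested features that were higher by that limit, and nothing is read from this count either. An adjusted p below 0.05 was found for none (0) in edgeR, and DESeq2 called 0 with 8 or with 4 libraries.

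The 10th member was the most abundant of the run. Its reads numbered 0 and 188 in the mdagg-2 libraries, against 435 and 3441 for mdagg-3, while wt had 1374 and 883 and mdagg-4 had 0 and 0. Replicate 1 of mdagg-2 was thus at 0 like both mdagg-4 libraries, and replicate 2 lay between those and mdagg-3. The 2nd member behaved otherwise in mdagg-4, where it kept 115 and 37 reads, and it had 1 and 67 reads in mdagg-2 and 49 and 1370 in mdagg-3. Of the 11 members, 7 were at 0 reads in replicate 1 of mdagg-2, 8 and 9 in the mdagg-4 libraries, 1 in replicate 1 of mdagg-3 and 0 in the remaining libraries.

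Relative to wt, the run was low in mdagg-2 and mdagg-4. The median member was at -4.72 in mdagg-2, -5.93 in mdagg-4 and -0.56 in mdagg-3 on the log2 scale. Both libraries lay below both wt libraries at 11 of the 11 members in mdagg-2 (14.7% of all tested features), at 11 in mdagg-4 (14.0%) and at 0 in mdagg-3 (16.4%). The mdagg-2 and mdagg-3 counts share libraries with the contrast that picked the run. In the authors' deposited table, the median log2 fold change against wt was -3.79 for mdagg-2, with 2 members called (0.0274% of all features), and 0.22 for mdagg-3, with 0 called. The value of mdagg-3 averages unlike libraries, since its median member was at -2.0 in replicate 1 and at 1.13 in replicate 2. Replicate 1 of mdagg-3 lay below both wt libraries in summed level and next to replicate 2 of mdagg-2, whose median member was at -2.70. The 20 tested features around the field 10 run had a median of -0.04.

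**Figure D4:**
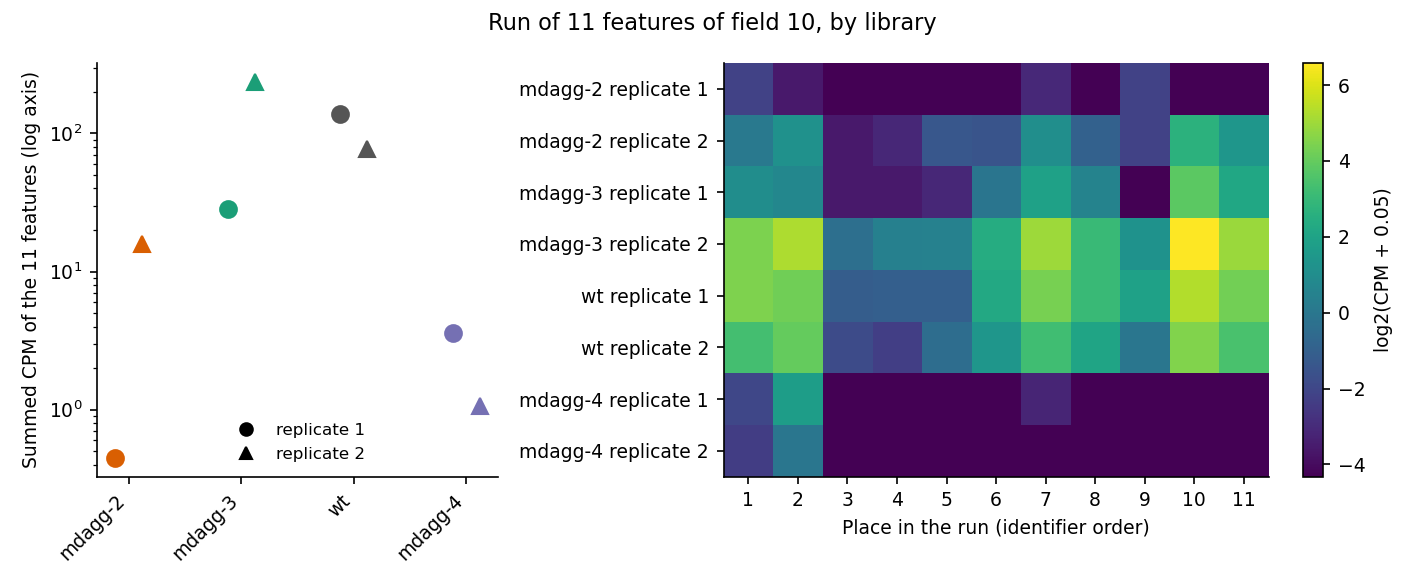
Left, summed CPM of the 11 members of the field 10 run in each library (y axis, log scale) by group, with circles for replicate 1 and triangles for replicate 2. Right, log2(CPM + 0.05) of each member (x axis, place in the run) in each library, where mdagg-4 and replicate 1 of mdagg-2 are near the floor at most places.

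Differences of at least 8-fold between line means with no overlap were found at 21 of the 32373 tested features, 17 higher and 4 lower in mdagg-3. Of the 17, 6 were members of the field 10 run and 11 lay elsewhere. Transcripts of 495 to 498 bases, the lengths of the run, made up 1 of these 11, and 48 of all 32373 tested features had such a length. That feature, of 498 bases on field 06, had 0.0689 and 0.812 CPM in mdagg-2, 1.21 and 14.5 CPM in mdagg-3, 16.7 and 7.01 CPM in wt, and 0.0291 and 0.149 CPM in mdagg-4. It lies outside the field 06 run. Its log2 level had a Pearson correlation of 0.94 with that of the summed field 10 run over 8 libraries, 4 of which also served to pick both. A correlation of at least 0.85 was found for 3 of the 11 features outside the run, the others having transcripts of 3810 and 504 bases, and for 37 of all tested features outside it.

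A pair of neighbouring features of 504 bases on field 05 was also higher in mdagg-3. Reads of the first numbered 48 and 7 in the mdagg-2 libraries, against 177 and 582 for mdagg-3, while wt had 284 and 206 and mdagg-4 had 61 and 4. For the second, the mdagg-2 libraries held 6 and 4 reads and the mdagg-3 libraries 65 and 258, while wt had 110 and 84 and mdagg-4 had 23 and 4. Both were thus lower in mdagg-2 and mdagg-4 than in mdagg-3 and wt. DESeq2 called the second in both fits, with adjusted p-values of 0.000759 (8 libraries) and 6.82e-05 (4 libraries). It called the first with 4 libraries, at an adjusted p of 0.0199, and not with 8, where it was 1. edgeR called neither.

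Reads present in one line and absent from the other were rare. The limits were at least 10 reads in both libraries of one line and 0 in both of the other. Of the 32373 tested features, 4 were found in mdagg-3 only and 3 in mdagg-2 only. One of the 4, of 365 bases on field 09, had 21 and 12 reads in mdagg-3 and 0 in all of the other 6 libraries. Another, of 3810 bases among the unplaced features, had 32 and 93 reads in mdagg-3, 47 and 24 in wt and 0 in every library of mdagg-2 and mdagg-4. A count of 0 allows up to 3 reads per library, so these features are below detection at this depth rather than shown to be absent.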

How the data were processed

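Per the labels' protocols, RNA was taken with a plant spin-column kit and made into stranded Illumina mRNA libraries. The submitters' processing notes name Salmon and DESeq2 and give no versions. Genome build and annotation: not given in the sources used here. For each library the authors deposited, per the file headers, the length and effective length of each transcript in bases, its TPM and its estimated count of reads. The estimated count is an expected count, not normalized, and 67.9% of the deposited values were whole. Salmon can divide reads between near-identical copies, so single members of such families are uncertain. TPM was computed by the authors, per the file headers, and was read without a test. The authors also deposited the log2 fold change of each line against wt with its p-value and adjusted p, copied here as they stand and named where printed.

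Estimated counts were rounded. The filter filterByExpr left 32373 of 52311 features, and TMM factors scaled the libraries. edgeR 4.0.16 in R 4.3.3 fitted 1 mean per group over 8 libraries (quasi-likelihood F test, 4 residual degrees of freedom), and the contrast was mdagg-3 minus mdagg-2, with Benjamini-Hochberg adjustment over all tested features and a threshold of 0.05. Standard errors are the size of the log2 difference divided by the square root of F. CPM are TMM-scaled, and a prior count of 2 was added for log2 CPM. Plots used log2(CPM + 0.05). Ratios of summed reads, scaled by library size, carry exact Clopper-Pearson 95% intervals, which cover counting error only. The fit was tested on simulated data. DESeq2 1.42.0, other scalings and filters, a replicate block and omission of each library were tried as alternatives. Levels behind a difference of 2-fold or 8-fold are line means of log2 CPM.

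By rule, the text names the 2 features higher and the 2 lower with the smallest p among those whose lines do not overlap. Runs of at least 10 features and the features at least 8-fold apart were chosen after their values were seen. The members and lists were chosen with earlier results of these data known. No identifier matched the reference table (assembly GDT2T_hap1), so no sequence is shown. An exact permutation test of 2 against 2 libraries cannot reach 0.05 and was not used.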

Additional observations from a re-analysis of the deposited data

How the results depend on the processing

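Counts depended on the tool. DESeq2 called 6 higher and 9 lower with 8 libraries, and 9 higher and 4 lower with 4, against 0 and 1 in edgeR. The lower count fell to 0 under the stricter filter (at least 10 reads in each of at least 4 libraries), which removes MD17G1123100 from the test. Leaving out each library in turn gave 0 to 1 lower and 0 higher features. The replicate block with 8 libraries gave 0 higher and 1 lower. With the block and 4 libraries 0 were lower, and the edgeR adjusted p of MD17G1123100 was 0.0793 (log2 difference -7.71). The plan for the main fit had no replicate block. Deviations of same-numbered libraries correlated between -0.31 and 0.53 over the 6 pairs of groups, and at 0.09 between mdagg-2 and mdagg-3. These values do not settle whether a number marks the same experiment in every group. The median absolute difference between line means was 0.20 to 0.30 with 1 library left out. Window medians reached -0.28 and 0.26 with the libraries numbered 1 only. The field 06 run had a median of -1.01 to -0.76 with 1 library left out, and the field 10 run 2.02 to 5.44. The scaling and filter alternatives kept both directions. Both runs were picked for a shared sign in every pairing of these same libraries, so no support is read from the kept directions. No result reversed. Scaling moved the median of all features by less than 0.1. In the main fit, edgeR gave an adjusted p of 1 even to MD13G1190300 and MD08G1171700, whose levels differed many-fold. That value depended on the filter. Without the low-count filter, the edgeR adjusted p was 0.225 for MD13G1190300 and 0.236 for MD08G1171700, and neither passed.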
